A study of Mus musculus with 2 samples.

Results

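Kallikreins 5, 6, 7, 8, 10 and 11 (Klk5, Klk6, Klk7, Klk8, Klk10 and Klk11) and their inhibitor Spink5 were followed through the keratinocytes of mouse dorsal skin. They are 7 of the 19059 genes in the probe set and were taken by name. The study compared 1 wildtype C57BL/6J mouse with 1 Eppk1-/- mouse backcrossed to the same strain. Eppk1 encodes epiplakin, a cytoskeletal linker of the plakin family, and the knockout was not limited to a tissue in the sources used here. Both mice were untreated and were otherwise described alike, and age and sex are not given in the sources used here. A punch of whole dorsal skin from each mouse was dissociated, fixed and profiled with the 10x Flex assay, in which pairs of probes hybridize to transcripts and each captured probe pair is counted once as a unique molecular identifier (UMI). With 1 library per genotype there was no replicate of either genotype, so no test between genotypes was made.

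The tissue kallikreins are secreted serine proteases made as inactive precursors. In the outer epidermis Klk5 can activate itself and other kallikreins, Klk7 cleaves corneodesmosome proteins, and the balance of these proteases with their inhibitors sets the rate at which dead cells are shed. Spink5 encodes LEKTI, a multidomain Kazal-type inhibitor of kallikreins that is released from granular keratinocytes and whose loss causes Netherton syndrome. Klk6 and Klk8 are trypsin-like members of the family, and Klk10 and Klk11 are less well understood in the skin.

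After filtering, 8875 wildtype and 8617 Eppk1-/- cells remained, with medians of 4963 and 5006 UMIs per cell. The libraries came from 1 pooled capture and shared 1211 droplet barcodes. Keratinocytes made up 5504 and 4065 of these cells, with 36578552 and 24901253 UMIs. Levels are given as UMIs of a gene scaled to 1000000 UMIs of the same cells (CPM). Eppk1 itself measured 3000 CPM in the keratinocytes of the wildtype mouse against 793 CPM in those of the Eppk1-/- mouse. It was 1127 and 74.7 CPM in those low in Krt1 and Krt10, but 732 and 939 CPM in the Lce-rich cells described next. The position of the Eppk1 probes relative to the deleted part was not known, so these counts check the labels only where the levels differed.

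Keratinocytes were placed in 5 classes by the share of a cell's UMIs on marker genes that are not among the kallikreins or Spink5. Cells with at least 0.1% of UMIs on Krt79 were called upper follicle, the funnel of the hair follicle near the skin surface. Of the rest, cells with at least 1% on the late cornified envelope (Lce) genes were called Lce-rich, those with at least 1% on Flg and Lor the granular range, and those with at least 1% on Krt1 and Krt10 the spinous range. All others were called Krt1/Krt10-low, a class of basal, bulge and other follicle keratinocytes. In wildtype skin the classes held 3785 Krt1/Krt10-low, 1001 spinous, 110 granular, 69 Lce-rich and 539 upper follicle cells, and in Eppk1-/- skin 2625, 978, 44, 53 and 365. The classes are ranges of a score, and 239 wildtype and 195 Eppk1-/- cells lay within 25% of the Krt1 and Krt10 threshold. The number of probes per gene was unknown, so levels are compared within a gene and not between genes.

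The 6 kallikrein genes lie side by side on the plus strand of chromosome 7 with Klk9 among them, over 76578 bases (GRCm38, GENCODE). Klk11 starts the row at chr7:43774604-43779263 and is followed by Klk10 at chr7:43781035-43785410, Klk8 at chr7:43797577-43803826, Klk7 at chr7:43811294-43816359, Klk6 at chr7:43824499-43832030 and Klk5 at chr7:43841971-43851181. The promoters of 3 of them are shown because these genes had different patterns over the classes. Klk7 was high in late epidermal cells, Klk10 in the upper follicle, and Klk11 was spread widely. The sequences are the bases before the first exon within the 250 bases upstream of the RefSeq start (the first of 2 for Klk11), on the plus strand of GRCm38, at chr7:43811044-43811293 for Klk7, chr7:43780804-43781034 for Klk10 and chr7:43774367-43774603 for Klk11. Capitals mark matches to the letters CACCC, a core bound by Krüppel-like factors such as the epidermal regulator Klf4, read on either strand (GGGTG is the reverse), and to TTGCNNAA, a C/EBP core.
Klk7: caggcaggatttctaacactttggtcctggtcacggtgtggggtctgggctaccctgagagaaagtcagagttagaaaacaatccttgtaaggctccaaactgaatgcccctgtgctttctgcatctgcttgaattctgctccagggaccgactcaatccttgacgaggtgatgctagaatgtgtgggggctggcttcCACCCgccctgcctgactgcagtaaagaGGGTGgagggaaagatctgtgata
Klk10: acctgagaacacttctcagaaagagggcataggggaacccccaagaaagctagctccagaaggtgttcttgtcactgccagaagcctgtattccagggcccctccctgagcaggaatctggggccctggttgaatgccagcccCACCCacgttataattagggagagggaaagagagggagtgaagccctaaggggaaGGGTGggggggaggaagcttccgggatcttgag
Klk11: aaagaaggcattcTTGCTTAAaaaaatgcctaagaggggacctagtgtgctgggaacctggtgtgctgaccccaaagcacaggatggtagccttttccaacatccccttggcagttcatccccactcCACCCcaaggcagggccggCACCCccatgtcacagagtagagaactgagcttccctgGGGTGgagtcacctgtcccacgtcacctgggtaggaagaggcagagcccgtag
Matches were counted in the 250 bases before each start, of which the Klk10 and Klk11 stretches show 231 and 237. Over the 250 bases before all 32851 RefSeq starts, CACCC was present in 52.0% and TTGCNNAA in 9.56%. CACCC occurred at 2 places for Klk7, 2 for Klk10 and 3 for Klk11, and TTGCNNAA at 1 place, for Klk11. The window of the other Klk11 start, chr7:43776079-43776328, held no CACCC and 1 TTGCNNAA. None of these windows held TATAAA (in 12.4% of promoters), the AP-1 core TGANTCA (6.75%) or the Grainyhead core AACCNGTT (1.79%). A match is a description of the letters only.

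Spink5, which lies on another chromosome, was found in every keratinocyte class and per total UMIs was highest in the granular range. With wildtype given first throughout, it stood at 202 and 85.9 CPM in Krt1/Krt10-low cells, 1185 and 986 CPM in the spinous range, 2871 and 3297 CPM in the granular range, 993 and 1246 CPM in Lce-rich cells, and 797 and 857 CPM in the upper follicle. On the CPM scale the order in both libraries was therefore granular first and Krt1/Krt10-low last. Klk7, the chymotrypsin-like member of the family, stood at 18.3 and 10.5 CPM in Krt1/Krt10-low cells, 484 and 396 CPM in the spinous range, 2769 and 3413 CPM in the granular range, 2783 and 3033 CPM in Lce-rich cells, and 1145 and 1119 CPM in the upper follicle. On this scale the wildtype counting intervals of Klk7 overlapped between the granular range (2695 to 2844 CPM) and Lce-rich cells (2696 to 2873 CPM). In Eppk1-/- skin they did not, and Klk7 was lower in Lce-rich cells (2929 to 3140 CPM) than in the granular range (3291 to 3539 CPM). Intervals here and below are exact 95% intervals that cover counting error only and treat UMIs as independent.

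Klk5, the trypsin-like member that can start the cascade, stood at 3.80 and 2.40 CPM in Krt1/Krt10-low cells, 232 and 223 CPM in the spinous range, 719 and 691 CPM in the granular range, 156 and 123 CPM in Lce-rich cells, and 233 and 221 CPM in the upper follicle. Its highest class on the CPM scale was the granular range, like that of Spink5, and its spinous and upper follicle levels overlapped in their counting intervals in both libraries. Klk8 stood at 23.8 and 29.7 CPM in Krt1/Krt10-low cells, 206 and 216 CPM in the spinous range, 396 and 438 CPM in the granular range, 305 and 283 CPM in Lce-rich cells, and 48.7 and 74.5 CPM in the upper follicle. Klk8, Klk11 and Spink5 were higher in the spinous range than in the upper follicle in both libraries, whereas Klk6, Klk7 and Klk10 were lower.

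Klk6 was scarce in the interfollicular classes and highest in the upper follicle on the CPM scale. It stood at 0.526 and 0.267 CPM in Krt1/Krt10-low cells, 2.36 and 4.70 CPM in the spinous range, 24.1 and 18.5 CPM in the granular range, 10.9 and 11.3 CPM in Lce-rich cells, and 55.3 and 51.3 CPM in the upper follicle. The Krt1/Krt10-low values rest on 9 and 3 UMIs. Klk10 stood at 14.9 and 7.48 CPM in Krt1/Krt10-low cells, 6.74 and 13.1 CPM in the spinous range, 9.21 and 16.2 CPM in the granular range, 3.62 and 6.59 CPM in Lce-rich cells, and 141 and 66.4 CPM in the upper follicle. Outside the upper follicle the order of the classes for Klk10 differed between the libraries. Klk11 had the narrowest range, at 32.1 and 34.0 CPM in Krt1/Krt10-low cells, 105 and 93.7 CPM in the spinous range, 70.6 and 47.5 CPM in the granular range, 86.8 and 56.4 CPM in Lce-rich cells, and 45.3 and 42.9 CPM in the upper follicle. Its highest class was the spinous range in both libraries on the CPM scale.

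**Figure D1:**
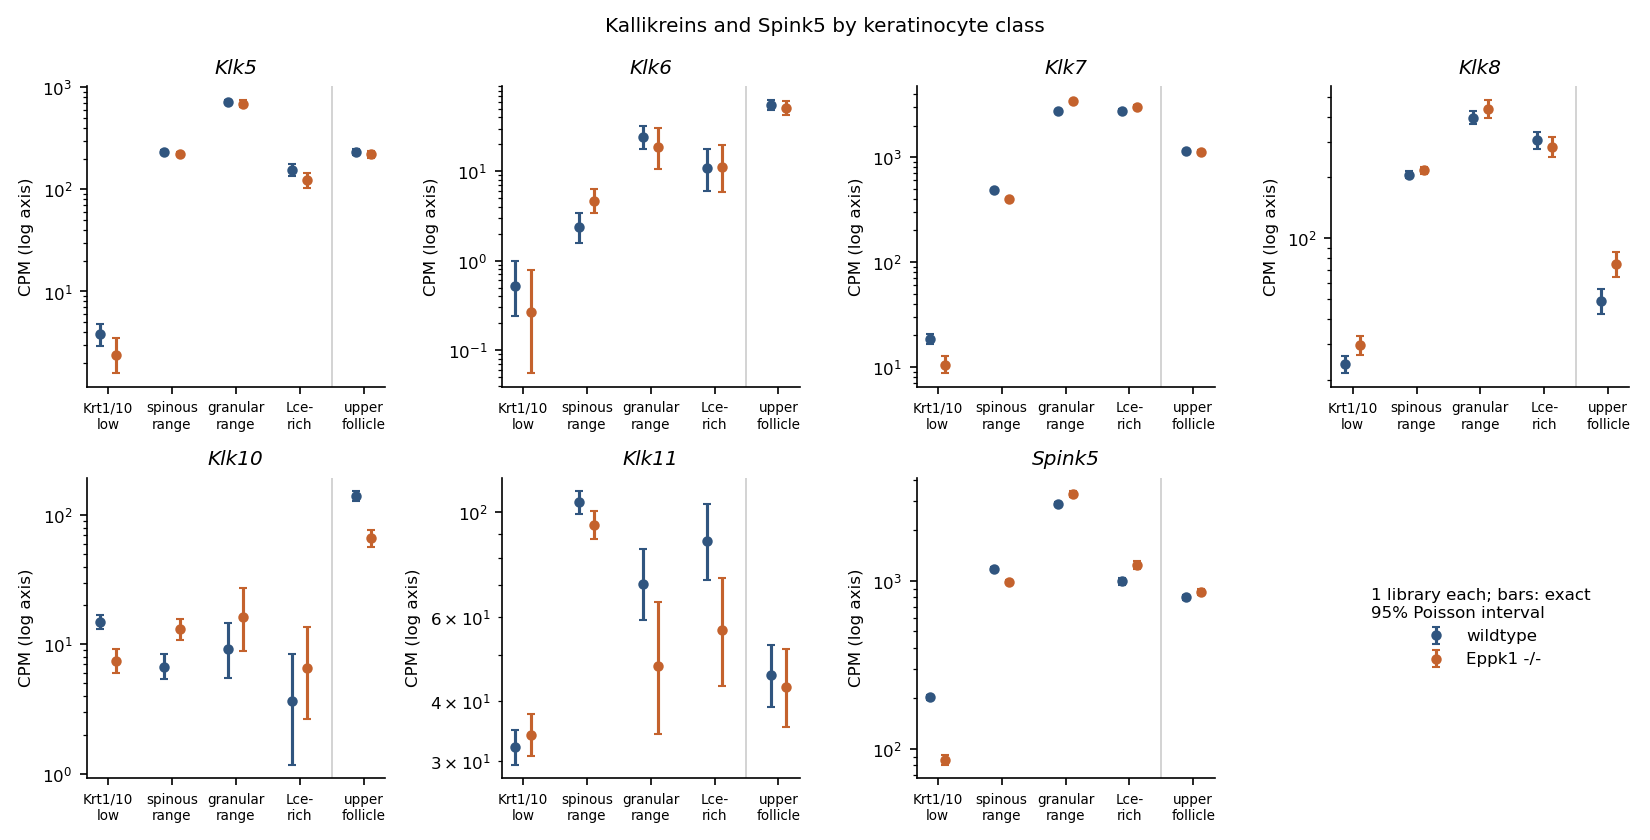
CPM (log axis) of each kallikrein and Spink5 in the 5 keratinocyte classes, 1 point per library with its exact 95% counting interval. Per total UMIs, Klk5, Klk8 and Spink5 are highest in the granular range, Klk6 and Klk10 in the upper follicle and Klk11 in the spinous range. With TMM scaling Klk8 and Klk11 are higher in Lce-rich than in granular cells. Spink5 is then not lower in Lce-rich cells (log2 change 0.07 in wildtype and 0.13 in Eppk1-/- skin).

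Adjacent classes were compared with edgeR's quasi-likelihood test on 10 sums, 5 classes in each of 2 libraries, with the library as a block and trimmed-mean (TMM) scaling. The libraries are mice of different genotype, and the block takes up any difference between them that is the same in all classes. The spread behind each p-value therefore holds how the class changes differed between the 2 libraries, whether by genotype or by mouse. Spread among mice of the same genotype was not measured. Values are log2 fold changes with standard errors, and p-values are Benjamini-Hochberg adjusted over the 10846 genes tested.

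From Krt1/Krt10-low to spinous cells, 6 of the 7 genes rose, beside 26.5% of all genes called higher and 30.7% called lower. Klk5 rose by 6.42 ± 0.17 on the log2 scale (edgeR adjusted p = 6.01e-10), with 6.23 in wildtype and 6.74 in Eppk1-/- skin. Klk7 rose by 5.19 ± 0.27 (edgeR adjusted p = 2.33e-08), and Klk8 by 3.26 ± 0.15 (edgeR adjusted p = 9.7e-09). The gain was thus steepest for the activating protease, and it had the same sign in both mice for all 3. Klk6 rose by 3.20 ± 0.43 (edgeR adjusted p = 6e-05), with 2.41 in wildtype and 4.16 in Eppk1-/- skin. Spink5 rose by 3.20 ± 0.32 (edgeR adjusted p = 4.7e-06), and Klk11 by 1.85 ± 0.13 (edgeR adjusted p = 2.63e-07). The Krt1/Krt10-low level of Spink5 includes the sub-cluster led by Krt75 described below, which held 64.5% and 35.1% of those UMIs. Klk10 gave 0.07 ± 0.39 (edgeR adjusted p = 0.899), and its change had opposite signs in the libraries.

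From the spinous to the granular range, 5 of the 7 genes rose, beside 23.6% of all genes called higher and 24.3% called lower. Klk7 rose by 3.18 ± 0.24 (edgeR adjusted p = 1.02e-06), Klk6 by 3.05 ± 0.34 (edgeR adjusted p = 2.16e-05) and Klk5 by 1.98 ± 0.13 (edgeR adjusted p = 2.74e-07). Spink5 rose by 1.88 ± 0.30 (edgeR adjusted p = 0.000334) and Klk8 by 1.33 ± 0.14 (edgeR adjusted p = 1.4e-05). The change of Klk6 was 3.63 in wildtype and 2.44 in Eppk1-/- skin, and that of Klk7 2.80 and 3.54. Klk11 gave -0.36 ± 0.16 (edgeR adjusted p = 0.0891) and Klk10 0.50 ± 0.69 (edgeR adjusted p = 0.584). The 2 genes that did not pass here are neighbours at the upstream end of the row, and a link with position was not tested. Klk10 rests on 18 and 14 granular UMIs from 7 and 6 cells, whereas Klk11 was lower in both libraries (-0.28 and -0.53). The summed level of 7 fibroblast markers in the granular range was 1280 CPM in wildtype and 103 CPM in Eppk1-/- skin, against 491 and 575 CPM in the spinous range, and its part in these changes was not tested. The same 5 genes were called without the sub-cluster of keratinocytes that also carried collagen and class II genes.

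From the granular range to Lce-rich cells the result depended on the scaling. The TMM factors were 0.342 and 0.333 in Lce-rich cells against 1.04 and 0.968 in the granular range, and without them the median of all genes moved by -1.57. With TMM, 3 of the 7 genes rose and 1 fell, beside 16.2% of all genes called higher and 10.9% called lower. Klk11 rose by 1.83 ± 0.20 (edgeR adjusted p = 1.61e-05), Klk7 by 1.47 ± 0.22 (edgeR adjusted p = 0.000331) and Klk8 by 1.08 ± 0.15 (edgeR adjusted p = 0.000146), and Klk5 fell by 0.76 ± 0.14 (edgeR adjusted p = 0.00123). Spink5 gave 0.11 ± 0.30 (edgeR adjusted p = 0.836). With the cells above the depth limits kept, Klk5 was no longer called (-0.043, edgeR adjusted p = 0.843). Per total UMIs, no gene of the 7 rose and 4 fell, with Klk5 at -2.33, Spink5 at -1.46, Klk6 at -1.01 (edgeR adjusted p = 0.0438) and Klk8 at -0.50. Klk7 gave -0.091 and was not called (edgeR adjusted p = 0.709). Klk5 was the lowest of the 4 genes called with TMM on both scales, and the values of Klk7 and Klk8 changed sign between the scales.

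A ratio of UMIs within the same cells does not depend on the scaling. For every Spink5 UMI there were 0.875 kallikrein UMIs (6 genes summed) in wildtype and 0.961 in Eppk1-/- spinous cells, 1.39 and 1.40 in the granular range, 3.37 and 2.82 in Lce-rich cells, and 2.09 and 1.84 in the upper follicle. In both libraries the ratio was lower in the spinous than in the granular range and highest in Lce-rich cells, and the counting intervals of these 3 classes did not overlap within a library. In Krt1/Krt10-low cells the ratio was 0.462 in wildtype and 0.981 in Eppk1-/- skin, and 1.29 and 1.51 without a sub-cluster led by Krt75 that is described below. Sub-clusters named basal differed widely. The largest stood at 4.90 and 3.87, from 81 and 82 Spink5 UMIs, and the next largest at 4.87 and 3.67, from 62 and 63. These ratios were above those of the Lce-rich class, but they rest on few Spink5 UMIs, from 957 and 816 cells and from 634 and 465 cells. In Eppk1-/- skin the counting interval of the next largest (2.76 to 4.93) overlapped that of Lce-rich cells (2.65 to 3.01). The other sub-clusters named basal were at 0.971 and 0.885 and at 0.915 and 1.75. Klk7 made up most of the difference between classes, with 0.409 and 0.402 UMIs per Spink5 UMI in the spinous range, 0.964 and 1.04 in the granular range, 2.80 and 2.44 in Lce-rich cells, and 1.44 and 1.30 in the upper follicle. Klk5 followed another course, with 0.196 and 0.227 in the spinous range, 0.25 and 0.21 in the granular range, and 0.157 and 0.0989 in Lce-rich cells. Among the cells within the depth limits, Lce-rich cells thus had fewer Klk5 and more Klk7 UMIs per Spink5 UMI than granular cells in both libraries. The Klk5 part rests on few cells, since 10 Lce-rich cells held 73.1% and 79.4% of the Klk5 UMIs of that class. These ratios were not recomputed with the cells above the depth limits kept, where the fall of Klk5 was no longer called.

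**Figure D2:**
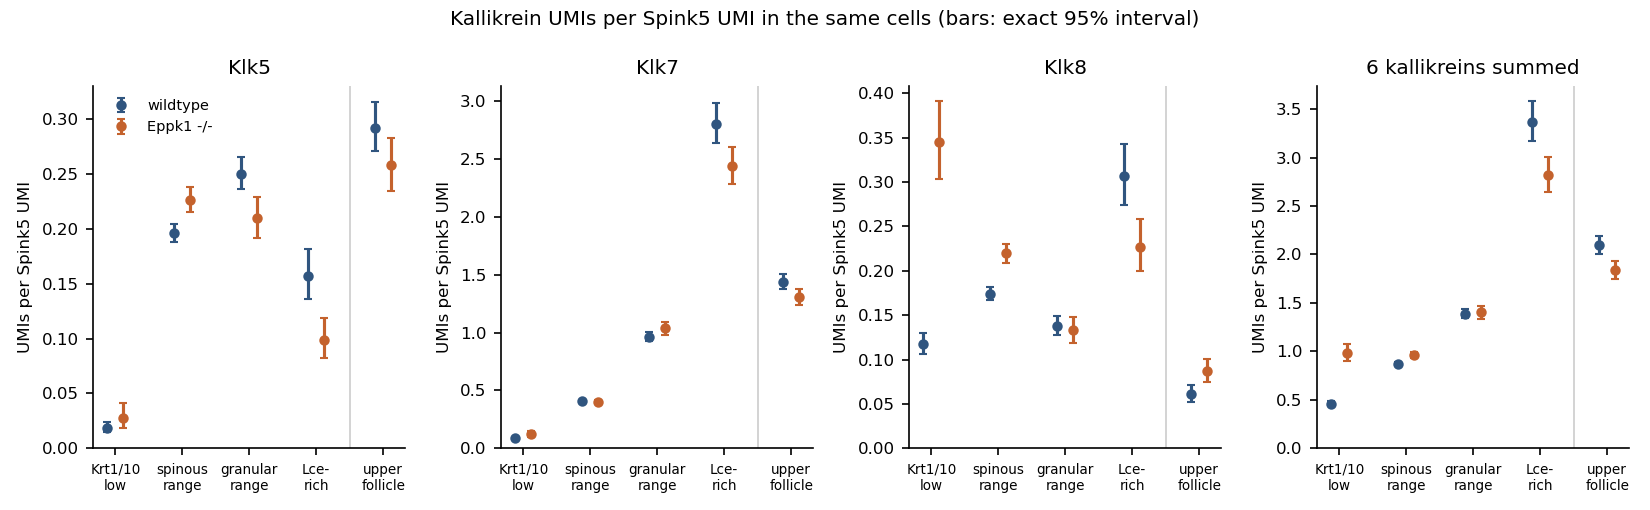
UMIs of Klk5, Klk7, Klk8 and the 6 kallikreins summed per UMI of Spink5 in the same cells (linear axes from 0, 1 panel each) by keratinocyte class, 1 point per library with exact 95% counting intervals. Klk7 climbs from 0.409 and 0.402 in the spinous range to 2.80 and 2.44 in Lce-rich cells, while Klk5 is lower there than in the granular range. In Lce-rich cells 10 cells held 73.1% and 79.4% of the Klk5 UMIs. Cells above the depth limits are not included.

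Finer bins of the Krt1 and Krt10 share showed how each gene changed along it. For these the Krt1/Krt10-low and spinous cells were taken without the sub-cluster led by Krt75. In wildtype skin Spink5 stood at 41.7 CPM in cells with under 0.1% of UMIs on Krt1 and Krt10 and at 147, 264, 582, 1307 and 1411 CPM in the 5 bins above, which began at 0.1%, 0.5%, 1%, 2% and 4%. In Eppk1-/- skin the same bins gave 24.6, 127, 252, 558, 1012 and 1286 CPM. Spink5 was therefore already several times its starting level in cells below the spinous threshold, in both mice. Klk5 stood at 3.0, 6.3, 8.5, 35.2, 219 and 418 CPM in wildtype and at 1.7, 6.7, 3.2, 42.2, 220 and 379 CPM in Eppk1-/- skin. In both mice Klk5 was at or under 8.5 CPM in every bin below 1% and near 220 CPM in the bin that began at 2%. Where its largest step lay differed between the libraries and between fold and absolute change, and the Eppk1-/- bin that began at 0.5% held 3 Klk5 UMIs. From the bin that began at 1% to the next, Klk8 went from 56.9 to 221 CPM in wildtype and from 81.3 to 220 CPM in Eppk1-/- skin. Klk7 stood at 12.2, 24.2, 69.1, 123 and 577 CPM in the wildtype bins up to the one that began at 2%. In the Eppk1-/- mouse these bins gave 7.1, 32.7, 11.8, 171 and 516 CPM, and the one that began at 0.5% held 11 UMIs. Klk7 was thus also above its starting level in the bin that began at 0.1%, in both mice. In the Eppk1-/- mouse, however, 1 cell with 1302 UMIs held 30 of the 44 Klk7 UMIs of that bin, so the rise there rests largely on 1 cell. Of the genes given here Klk11 had the narrowest range, going from 27.3 to 122 CPM and from 29.6 to 124 CPM over all bins. The bins follow the same cells as the classes, and their order was not tested.

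Along the Flg and Lor share, the members parted in the last bin. In wildtype cells of the spinous, granular and Lce-rich classes, Spink5 stood at 1071, 2638, 2774 and 1716 CPM in bins that began at 0%, 0.1%, 1% and 5%, and in Eppk1-/- cells at 901, 2834, 3664 and 1714 CPM. Klk5 stood at 197, 685, 735 and 348 CPM and at 192, 896, 818 and 245 CPM. Both were lower in the last bin than in the one before it. Klk7 stood at 355, 2133, 2186 and 3101 CPM and at 289, 2722, 2852 and 3309 CPM, highest in the last bin in both mice. Klk11 stood at 103, 129, 94.2 and 68.0 CPM and at 92.6, 117, 71.9 and 46.6 CPM, lowest in the last bin. These are CPM per total UMIs, and the bins were not scaled with TMM. Between granular and Lce-rich cells on the TMM scale, Klk11 rose and Spink5 was not called. Klk5 fell there, a call that was lost with the cells above the depth limits kept. The lower values of the last bin are therefore given for the CPM scale only. The Eppk1-/- bins that began at 0.1% and 1% held 27 and 22 cells.

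**Figure D3:**
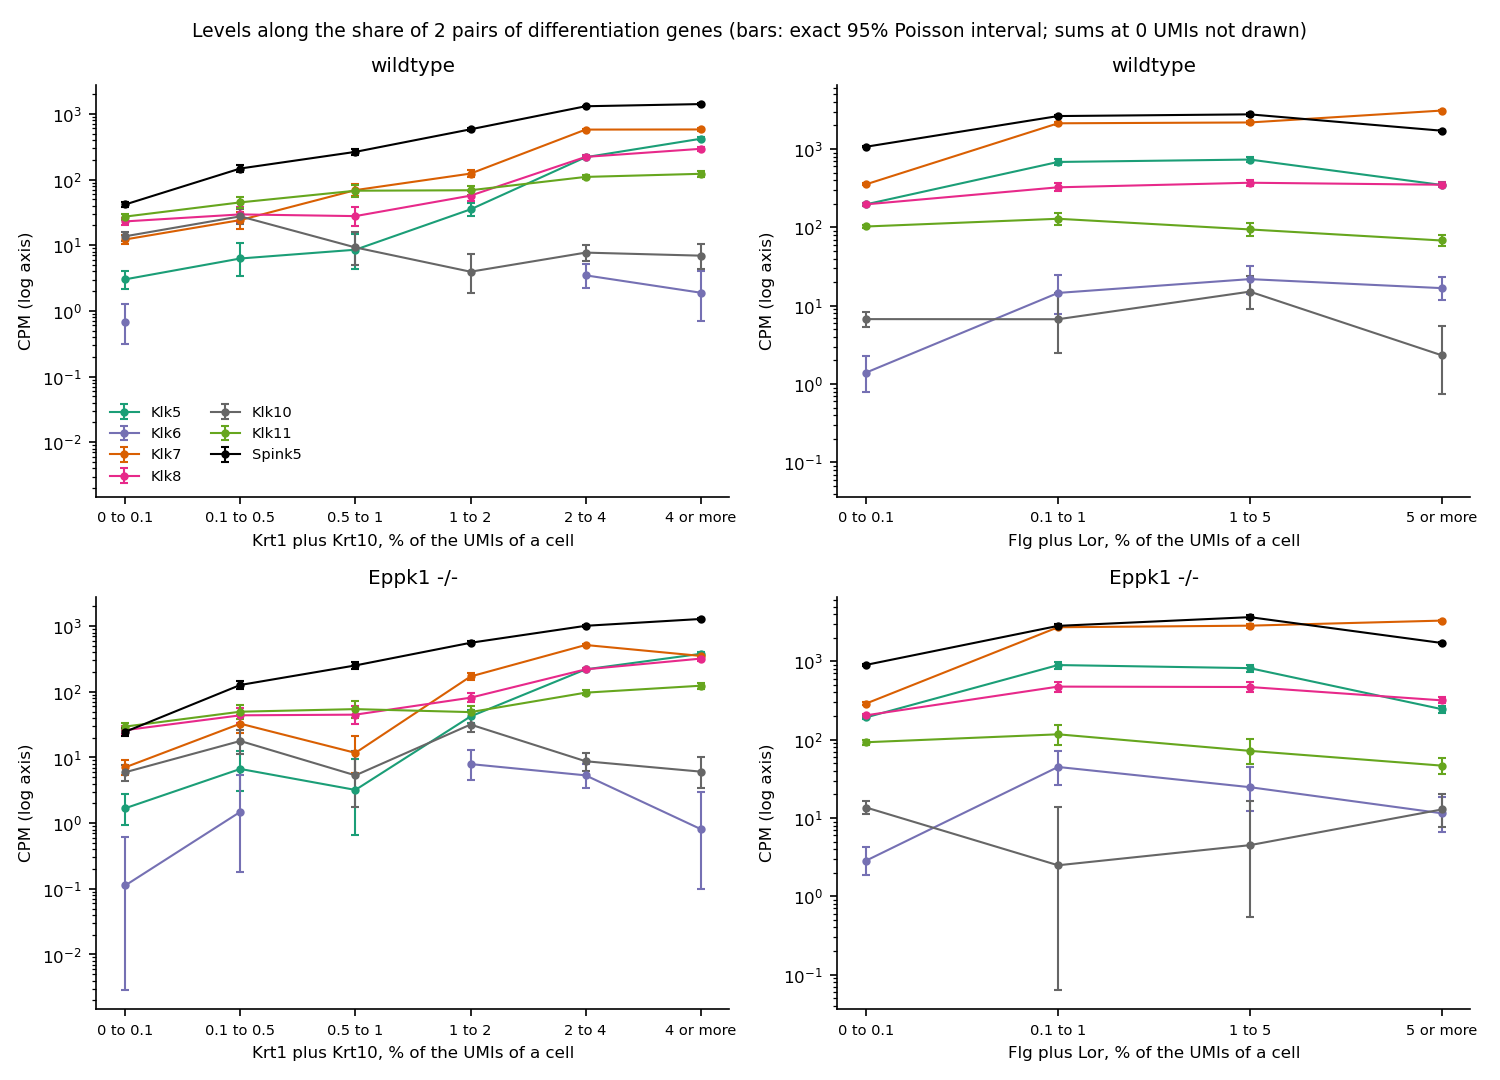
CPM (log axis) of the kallikreins and Spink5 in bins of the share of UMIs on Krt1 and Krt10 and in bins of the share on Flg and Lor, 1 line per gene and 1 row of panels per library, with exact 95% counting intervals. In the bin of Krt1 and Krt10 that begins at 0.1%, Spink5, Klk5 and Klk7 are each higher than in the first bin in both libraries. For wildtype Klk5 these intervals overlap, and for Klk7 in the Eppk1-/- library 1 cell held 30 of the 44 UMIs of that bin. Klk5 is at or under 8.5 CPM in the bins under 1% in both libraries and near 220 CPM in the bin that begins at 2%.

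In single cells, Spink5 and the kallikreins met most often in the granular range. After each cell was thinned to 1000 UMIs, Spink5 was seen in 91.8% of wildtype and 100% of Eppk1-/- granular cells (99.1% and 100% unthinned), Klk7 in 90.9% and 84.1% (100% and 97.7%), and Klk5 in 55.5% and 36.4% (96.4% and 97.7%). Among thinned cells with at least 1 kallikrein UMI, Spink5 was also seen in 64.8% of wildtype and 57.4% of Eppk1-/- spinous cells, 94.2% and 100% of granular cells, 61.7% and 52.3% of Lce-rich cells and 41.9% and 50.9% of upper follicle cells. The share was highest in granular cells and lowest in the upper follicle among these 4 classes in both libraries. In the other direction, kallikrein UMIs were seen in 44.2% and 37.1% of spinous, 96.0% and 93.2% of granular, 97.4% and 88.5% of Lce-rich and 66.4% and 72.8% of upper follicle cells with Spink5. In fibroblasts, which should lack these genes, thinned cells held Spink5 in 1.6% and 1.1% and Klk7 in 1.1% and 0.7% of cells, with a wildtype median depth of 6977 UMIs against 4531 in keratinocytes. In all thinned keratinocytes the shares were 17.3% and 16.6% for Spink5 and 9.9% and 8.7% for Klk7.

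In the upper follicle class, which was cut by Krt79, all 7 genes were higher than in Krt1/Krt10-low cells. Beside them 25.5% of all genes were called higher and 26.8% lower. Klk6 rose most, by 6.96 ± 0.32 (edgeR adjusted p = 2.41e-08), followed by Klk7 with 6.34 ± 0.28 (edgeR adjusted p = 1.82e-08) and Klk5 with 6.21 ± 0.17 (edgeR adjusted p = 1.92e-09). Klk10 rose by 3.25 ± 0.34 (edgeR adjusted p = 1.08e-05), Spink5 by 2.60 ± 0.31 (edgeR adjusted p = 3.13e-05; 2.06 in wildtype and 3.34 in Eppk1-/- skin alone) and Klk8 by 1.24 ± 0.16 (edgeR adjusted p = 5.43e-05). Klk11 rose by 0.47 ± 0.15 (edgeR adjusted p = 0.0234), and this call was lost with stricter class thresholds (edgeR adjusted p = 0.113) and with the comparison held to sub-clusters named basal (edgeR adjusted p = 0.409). Upper follicle cells with under 1% of UMIs on Krt1 and Krt10 (477 wildtype and 300 Eppk1-/- cells) kept most of this pattern, with Klk7 at 1039 and 993 CPM, Klk5 at 201 and 172 CPM, and Klk10 at 156 and 73.4 CPM. The 62 and 65 upper follicle cells above that share had more Spink5, at 1703 and 1554 CPM against 598 and 635 CPM, and more Klk8, at 102 and 121 CPM against 37.0 and 59.6 CPM. Klk10 went the other way, at 71.5 and 44.6 CPM in the cells above the share. Not every sub-cluster named upper follicle had this pattern. The one led by Krt79, with 579 and 402 cells, held 7685 and 4740 UMIs of the 6 kallikreins. The one led by Pthlh, with 325 and 169 cells, held 174 and 112. The 7 fibroblast markers summed to 694 and 1734 CPM in the upper follicle against 468 and 485 CPM in Krt1/Krt10-low cells, and their part in this contrast was not tested. Of the Spink5 UMIs in Krt1/Krt10-low cells, 64.5% and 35.1% came from the sub-cluster led by Krt75 described below.

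Klk10 counts in the upper follicle sat in few cells. In wildtype skin 537 Klk10 UMIs came from 68 of 539 upper follicle cells, and 1 of these cells held 243 of them. In Eppk1-/- skin 172 UMIs came from 41 of 365 cells, with at most 51 in 1 cell. The 10 cells with the most held 76.4% and 75% of these UMIs. Klk6 counts there also sat in few cells, with 211 UMIs from 59 wildtype and 133 UMIs from 40 Eppk1-/- cells. For Klk6 the top 10 cells held 60.2% and 63.2%. Among spinous cells of the Eppk1-/- mouse, 1 cell held 52 of the 120 Klk10 UMIs.

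A small set of follicle keratinocytes had Spink5 with almost no kallikrein. This sub-cluster was led by Krt75, a keratin of the companion layer of the hair follicle, and stayed unnamed because it carried too few fixed markers. It held 61 wildtype and 12 Eppk1-/- cells, with Spink5 at 5370 and 6890 CPM, above the granular range in both libraries. Its 2236 and 339 Spink5 UMIs stood beside 11 and 3 UMIs of the 6 kallikreins together. It supplied 64.5% and 35.1% of all Spink5 UMIs of Krt1/Krt10-low cells, although it was 1.11% and 0.295% of keratinocytes.

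Outside keratinocytes, Klk6 in sebaceous cells and Klk8 in T or NK cells, singled out after their values were seen, stood above the fibroblast level. Klk6 was at 67.3 and 70.3 CPM in sebaceous cells, from 93 and 128 UMIs, with 60 of the wildtype UMIs in 1 cell and the Eppk1-/- UMIs in 23 of 130 cells. Klk8 was at 75.7 and 109 CPM in T or NK cells, from 38 and 45 UMIs spread over 35 of 223 and 37 of 199 cells. Fibroblasts had Klk6 at 0.141 and 0.164 CPM and Klk8 at 3.10 and 3.18 CPM. T or NK cells had 8 and 17 Klk7 UMIs, fewer than of Klk8, whereas granular cells had 5410 and 2944 UMIs of Klk7 beside 773 and 378 of Klk8. Fibroblast Klk7 was 13.2 and 5.65 CPM, and Spink5 19.3 and 10.6 CPM. Sebaceous cells were above both of these levels too, from 46 and 97 Klk7 UMIs and from 72 and 214 Spink5 UMIs. T or NK cells were also above that Spink5 level, from 21 and 15 UMIs.

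**Figure D4:**
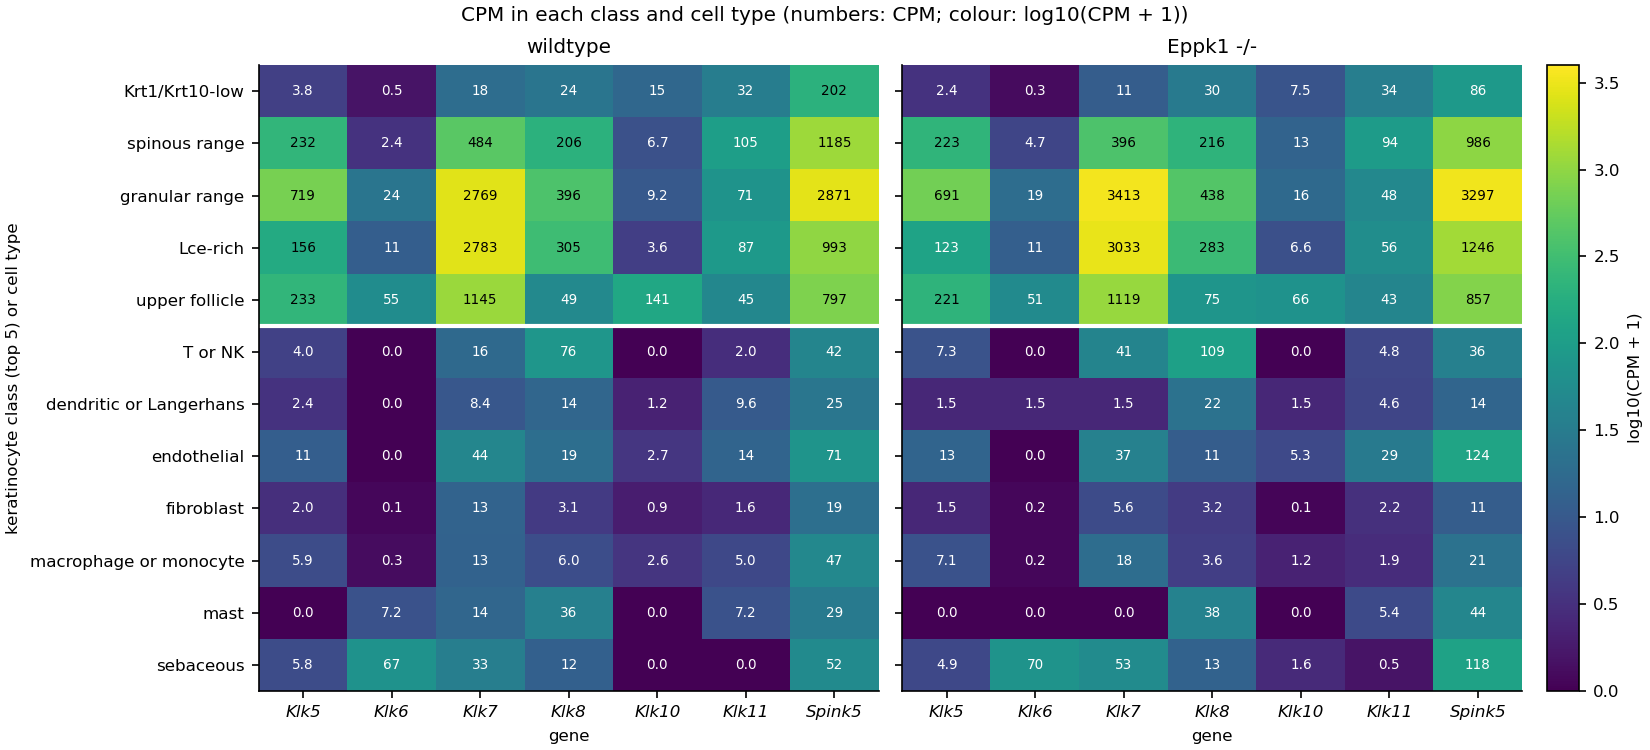
CPM of the kallikreins and Spink5 in the 5 keratinocyte classes and in the named cell types with at least 50 cells, 1 panel per library (colour scale of log10(CPM + 1)). Outside the keratinocyte classes most levels are low. Sebaceous cells stand out for Klk6, with Klk7 and Spink5 also above fibroblasts, and T or NK cells stand out for Klk8.

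Between the genotypes, keratinocyte levels of most of the 7 genes were close. Klk5 was at 149 and 135 CPM, Klk6 at 8.50 and 8.31 CPM, Klk7 at 544 and 514 CPM, Klk8 at 118 and 128 CPM, and Klk11 at 62.0 and 58.3 CPM. The log2 ratios of Eppk1-/- over wildtype were -0.13 for Klk5, -0.03 for Klk6, -0.08 for Klk7, 0.11 for Klk8 and -0.09 for Klk11, beside a median of -0.013 over 11789 genes. Spink5 was at 767 and 658 CPM, a log2 ratio of -0.22 (-0.25 to -0.19). Klk10 was at 24.5 and 15.9 CPM, a log2 ratio of -0.62 (-0.80 to -0.45). Klk10 alone of the 7 was past the size rule, a log2 ratio of at least 0.5 (met by 3.43% of genes) or at most -0.5 (4.54%). Without the 1 cell with the most Klk10 in each library the ratio was -0.37 (-0.56 to -0.18), and none of the 7 passed.

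By class, the direction of the Klk10 ratio was not shared. It was -1.08 in the upper follicle and -0.99 in Krt1/Krt10-low cells, but 0.96 in the spinous range. With class thresholds of 2% the ratio in Krt1/Krt10-low cells was -0.17. Without the cell with the most Klk10 in each library these became -0.71 (-1.03 to -0.41), -0.92 (-1.31 to -0.55) and 0.23 (-0.26 to 0.72). In Krt1/Krt10-low cells 4 members with enough counts, Klk5, Klk7, Klk10 and Spink5, were past 0.5 downwards and none upwards, beside 6.07% and 3.09% of genes. The counting interval of Klk5 (-1.36 to 0.0088) included 0, and Spink5 had the largest of these ratios, -1.24 (-1.34 to -1.13), and was at -0.39 without the sub-cluster led by Krt75. Held to sub-clusters named basal, the Spink5 ratio was -0.11 and the Klk7 ratio -0.19.

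In the later epidermal classes the ratios were small for the abundant genes. Klk7 was at -0.29 in the spinous and 0.30 in the granular range, Spink5 at -0.27 and 0.20, and Klk5 at -0.06 and -0.06. Thus Klk7 and Spink5 were lower in Eppk1-/- spinous cells and higher in Eppk1-/- granular cells, each by less than the size rule. With the cells above the depth limits kept, the granular ratios were only 0.04 for Klk7 and 0.07 for Spink5. The spinous ratios were then -0.20 and -0.15. In the upper follicle Klk8 was at 0.61 (0.31 to 0.91), where 4.75% of genes passed 0.5 upwards and 4.6% downwards. Klk6 in the spinous range was at 0.99 from 29 and 43 UMIs. With Klk10 it was past 0.5 upwards there, where 5.89% of genes passed upwards and 3.96% downwards. Without the cell with the most Klk6 in each library this Klk6 ratio was 0.77 (-0.011 to 1.57). With the cells above the depth limits kept it was 0.22. Klk11 was at -0.56 in the granular range and -0.62 in Lce-rich cells, where 14.7% and 10.1% of genes passed downwards and 4.49% and 6.88% upwards. The 44 Eppk1-/- granular cells set the precision here. With 1 mouse per genotype, the genotype cannot be told apart from the mouse, the punch or the library.

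**Figure D5:**
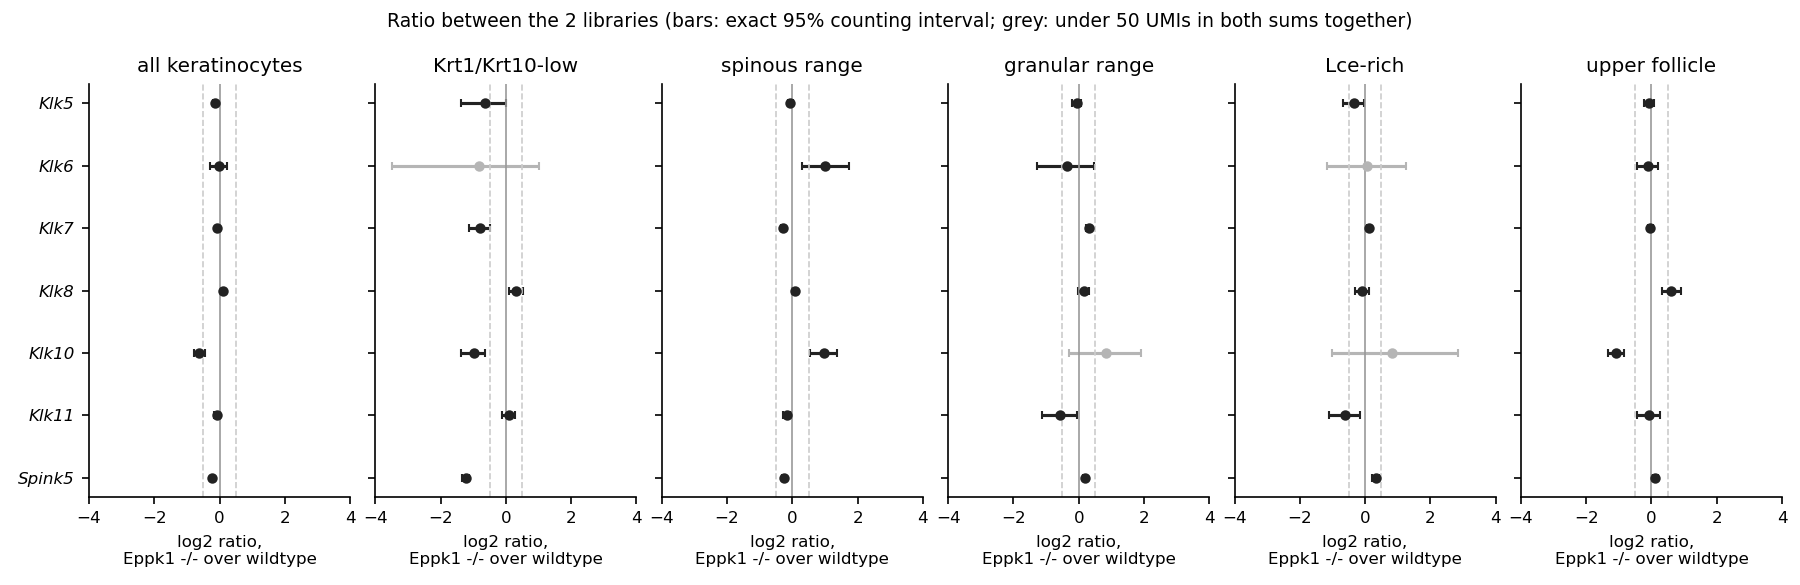
Log2 ratio of Eppk1-/- over wildtype CPM for each of the 7 genes, in all keratinocytes and in each class, with exact 95% counting intervals and with sums under 50 UMIs in grey. Most abundant genes lie within 0.5 of zero. Spink5 lies at -1.24 in Krt1/Krt10-low cells, and at -0.39 there without the sub-cluster led by Krt75. Klk10 lies at -1.08 in the upper follicle and at 0.96 in the spinous range. Without the cell with the most Klk10 in each library these are -0.71 and 0.23.

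Other genes of desquamation were read from a list of 77, of which 45 had at least 50 UMIs. From Krt1/Krt10-low to spinous cells 34 of the 45 rose and 6 fell, beside 26.5% and 30.7% of all genes. From spinous to granular cells 22 rose and 14 fell, beside 23.6% and 24.3%. The 22 include Flg, whose rise was set by the class rule, since the granular range was cut by Flg and Lor. The medians were 1.58 and 0.21, beside -0.05 and -0.06 over all genes tested. Of the 16 protease inhibitors on the list 12 had enough counts to be tested. All 12 rose into the spinous range, 7 rose and 3 fell into the granular range, and 2 rose and 4 fell into Lce-rich cells, where 16.2% of all genes were called higher and 10.9% lower on the TMM scale. Of 10 tested activating or related proteases, 8 rose into the granular range and 8 into Lce-rich cells. Klk9, which lies between Klk10 and Klk8, was the other kallikrein with enough counts and was found mainly in Lce-rich cells, at 960 and 1067 CPM against 81.9 and 105 CPM in the granular range (log2 change 5.03, edgeR adjusted p = 3.5e-09).

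The activating proteases on the list took different courses. Prss8, a membrane protease, was at 87.7 and 91.3 CPM in the spinous range, 317 and 325 CPM in the granular range and 719 and 597 CPM in Lce-rich cells. St14, matriptase, was at 253 and 285 CPM in the granular range and 112 and 70.6 CPM in Lce-rich cells. With TMM scaling this St14 difference was not called (log2 change 0.038, edgeR adjusted p = 0.92). Cdsn, corneodesmosin and a substrate of Klk5 and Klk7, rose into the spinous range by 4.89 (edgeR adjusted p = 1.51e-07) and into the granular range by 2.64 (edgeR adjusted p = 1.88e-05), reaching 4042 and 5271 CPM there and 5036 and 5528 CPM in Lce-rich cells. Dsg1a, a desmosomal cadherin, was at 3132 and 2857 CPM in the spinous range and 332 and 234 CPM in Lce-rich cells. Dsc1, its partner cadherin, was highest in the granular range at 1389 and 1570 CPM. F2rl1, the receptor PAR2 that Klk5 can cleave, ran against the proteases and fell by 2.37 from the spinous to the granular range (edgeR adjusted p = 8.54e-06). Its level was 484 and 471 CPM in Krt1/Krt10-low cells and 71.1 and 27.8 CPM in granular cells.

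Between genotypes, 1 of the 45 genes was past 0.5 upwards and 3 downwards, beside 3.43% and 4.54% of all genes, and the list median was -0.056 beside -0.013. The highest were Flg at 0.72, F2r at 0.29 and Flg2 at 0.28, and the lowest were the inhibitors Serpinb12 at -1.31, Serpinb6c at -0.78 and Slpi at -0.57. Flg was one of the genes that defined the granular class. Serpinb12, a serpin, was at 161 and 57.9 CPM in the spinous range and at 41.5 and 17.4 CPM in the granular range.

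Over the 10 sums, the genes with the profiles most like Spink5 were Bicdl2, Kifc3, Orm1, Dgat2 and Csnk2a2, with Pearson's r of log2(CPM + 1) from 0.971 to 0.981. Among the kallikreins r with Spink5 was 0.959 for Klk5, 0.917 for Klk7, 0.876 for Klk8, 0.673 for Klk6, 0.564 for Klk11 and 0.0135 for Klk10. The genes most like the sum of the 6 kallikreins were Tgm1, Cnfn, Hrnr, Tmprss11f and Il1f5, with r from 0.988 to 0.996. These sums share 2 libraries and the same 5 classes, so r describes the course over the classes only.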

How the data were processed

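Per the labels and the methods, the authors aligned the Flex reads with Cell Ranger 8.0.1 to mm10 (GRCm38), and the deposited values are UMI counts per gene and cell, with no normalization. Filters followed the study's limits. A cell needed from 200 up to 45000 UMIs, from 100 up to 7500 genes, and no more than 10% of its UMIs on mitochondrial genes, and 304 wildtype and 194 Eppk1-/- cells were removed. The 13 mitochondrial genes were then dropped. Cells were integrated and clustered with Seurat 5.3.0 (resolution 0.5) with the 7 genes left out of the variable features, and clusters were named from marker lists. The cluster led by Lce genes was counted as keratinocytes after the clusters were seen. Doublets were not removed, and leaving out the highest 5% of Scrublet scores was an alternative. CPM is a gene's UMIs divided by all UMIs, summed over cells and scaled to 1000000. Stage contrasts used edgeR 4.0.16 (quasi-likelihood test, library block, Benjamini-Hochberg over all genes). On simulated counts for 10846 genes in the granular against spinous contrast, 80% of genes changed by log2 1 and 100% of those changed by log2 2 were recovered. There every other gene had the same share in all classes, the dispersion was 0.0116 for all genes, and changes were equal in both libraries. The real classes differ more widely, so these rates need not hold for them. Genotype ratios add 0.5 UMI to each sum and count genes with at least 50 UMIs past a log2 ratio of 0.5. Named genes were the 7, other kallikreins with at least 50 UMIs, the 3 highest and 3 lowest ratios on the desquamation list, 6 further preset list genes and the 5 genes with the most similar profiles. Members and lists were chosen with earlier results of these data known. Promoters came from RefSeq (GRCm38), with no entry used for Spink5.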

Additional observations from a re-analysis of the deposited data

Results flagged for a closer look

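The change of Klk10 from Krt1/Krt10-low to spinous cells went in opposite directions in the 2 libraries. On the TMM scale the wildtype library gave -0.83 and the Eppk1-/- library 1.03, a difference of 1.87 on the log2 scale. With 1 library per genotype the difference was not tested. In the Eppk1-/- library 1 spinous cell held 52 of 120 Klk10 UMIs, and the wildtype Krt1/Krt10-low sum held 255 UMIs from 166 cells with at most 21 in 1 cell.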

How the results depend on the processing

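Genotype ratios, stage contrasts and shares of cells were recomputed, each under the alternatives that apply to it. The bins, co-detection, desquamation list and likeness values were not, and the UMIs per Spink5 UMI only without the Krt75-led sub-cluster. No paired analysis of the genotypes was possible because each has 1 library. Removing the library block changed no member's call. The counts of members called, 6, 5 and 7 higher in the first, second and upper follicle contrasts, stayed within 1.5 times under every alternative, and 3 in the Lce contrast did so except that without normalization factors it was 0 higher and 4 lower. With cells above the UMI and gene caps, 0 were lower there, and Klk5 gave -0.043 (edgeR adjusted p = 0.843). From spinous to granular, 1 member (Klk11) was lower with 2% thresholds, with no normalization factors and with no filter on low counts. Klk11 in the upper follicle was not called with DESeq2 (adjusted p = 0.121). Without normalization factors Klk7 and Klk8 reversed in the Lce contrast, at -0.091 and -0.50.

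Genotype ratios reversed for Klk6 in Krt1/Krt10-low cells (1.62) and Klk10 in the spinous range (-0.20) with 2% thresholds, for Klk10 in the granular range without the highest Scrublet scores (-0.67) and without mixed sub-clusters (-0.58), and, with cells above the caps, for Klk11 in the granular range (0.13) and Klk10 in Lce-rich cells (-0.18). Other sign changes with cells above the caps included Klk5 in keratinocytes (0.11), the spinous range (0.11), Lce-rich cells (0.23) and the upper follicle (0.14). Klk7 in keratinocytes (0.017) and the upper follicle (0.15), Klk8 in Lce-rich cells (0.22) and Klk11 in keratinocytes (0.018) changed sign there too. The causes were not tested. With 2% thresholds the Klk10 ratio in Krt1/Krt10-low cells was -0.17. Leaving out either library gave values with no test, and 1 library moved the fold by over 1.5 times for Klk10 (-0.83 to 1.03) and Klk6 (2.41 to 4.16) into the spinous range, Klk6 (2.44 to 3.63) into the granular range and Spink5 (2.06 to 3.34) in the upper follicle. The keratinocyte Spink5 ratio of -0.22 became -0.26 without high Scrublet scores, -0.042 with cells above the caps, -0.15 without the Krt75-led sub-cluster, -0.16 with wildtype class weights and -0.15 thinned. The kallikrein sum at -0.07 became -0.13 without high Scrublet scores, 0.059 with cells above the caps, -0.14 as a mean over cells, -0.0056 with wildtype class weights and -0.11 thinned. Without the cell with the most UMIs in each library, 0 members were past 0.5 downwards. Unthinned, Klk7 was seen in 16.6% and 14.0% and Spink5 in 32.7% and 32.2% of keratinocytes.

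The caps removed 265 wildtype and 185 Eppk1-/- cells, which were not clustered or given a cell type. By marker shares 259 and 177 of them fell in a class other than Krt1/Krt10-low, and 109 and 73 were granular or Lce-rich. Only the 259 and 177 cells were added in the alternative with cells above the caps. The alternatives with those cells, without a sub-cluster, without the top cell, held to basal sub-clusters and without normalization factors were chosen after seeing the data.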

Other observations

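A cluster left unnamed because nearly all of its cells came from 1 library held 1 wildtype and 55 Eppk1-/- cells. It was led by Cyp2g1, Btc, Serpina3b and Hamp2. The marker list that matched it best was the sebaceous one, with 4 markers. Cyp2g1, Serpina3b, Scd3 and Cidea were among the leading genes of both this cluster and the sebaceous cluster. In its Eppk1-/- cells Klk7 stood at 1400 CPM, Spink5 at 909 CPM, Klk5 at 428 CPM and Klk8 at 339 CPM. The cluster was not counted among the keratinocytes or the sebaceous cells above.

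Among the keratinocyte sub-clusters, 1 named spinous held 382 wildtype and 213 Eppk1-/- cells with the largest median depth of the spinous sub-clusters, and had Klk7 at 1312 and 1566 CPM, Klk5 at 441 and 515 CPM, and Spink5 at 1788 and 1907 CPM. The largest sub-cluster named spinous had Spink5 at 452 and 457 CPM but Klk7 at 16.1 and 12.5 CPM and Klk5 at 6.2 and 6.0 CPM. These 2 sub-clusters thus differed more in Klk5 and Klk7 than in Spink5. The leading genes of the deeper one included Wfdc21 and Serpina12, which were highest in the granular range in both libraries. Its 12106 and 7412 Klk7 UMIs exceeded the 5959 and 3626 of the whole spinous range, so it also held cells of other classes. The part of stage in the difference was not tested. A smaller one, with 80 and 73 cells and led by class II and collagen genes, had 570 and 698 Klk7 UMIs beside 1146 and 712 Spink5 UMIs.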
